A study of Mus musculus with 40 samples.

Results

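The core circadian clock of the mouse heart was followed through 10 genes, Arntl, Clock, Npas2, Per1, Per2, Per3, Cry1, Nr1d1, Nr1d2 and Dbp. They were chosen by gene name, and all 10 were listed, among 17646 genes in the table of male hearts and 17223 genes in the table of female hearts, and all 10 passed the filter on low values in both. The mice belonged to 5 groups of each sex. Control mice carried the cardiomyocyte Cre driver MCM (α-MHC-MerCreMer) without the Rosa26-Il11 transgene, are labelled WT at baseline and received tamoxifen. CM-Il11-Tg mice carried both MCM and Rosa26-Il11, 1 copy of each, and were sampled without tamoxifen at baseline (uninduced) or 1, 3 and 6 weeks after tamoxifen had been started in adult animals. MCM was thus shared by all 5 groups, and tamoxifen by every group but the uninduced one. The α-MHC promoter directs Cre to cardiomyocytes, so Il11, which codes for the cytokine interleukin 11, was switched on in that cell type. Male controls and male hearts at 6 weeks had 3 libraries each and every other group had 4, since 2 further male libraries carry labels that give 2 different groups and were left out. The labels give the tissue as heart, and the study's methods as left ventricle. The hour of the day at which hearts were taken was not given in the sources used here.

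In the clock, ARNTL (also called BMAL1) pairs with CLOCK or NPAS2 and binds E-boxes in the promoters of the Per and Cry genes, of Nr1d1 and Nr1d2 and of Dbp. PER and CRY proteins then hold back that pair, and NR1D1 and NR1D2 (REV-ERBα and REV-ERBβ) repress Arntl and Npas2 through ROR elements, so that in a mouse heart Arntl and Npas2 are high at the time of day when Dbp, Per3 and Nr1d1 are low. DBP is a transcription factor that binds D-boxes, one source of the timing of Per genes. In a heart sampled at a single time, the ratio of Dbp to Arntl shows how far it lies toward high Dbp or high Arntl. The same ratio is passed both on the rise and on the fall, so it does not give the hour. Groups sampled at different hours can differ in many of these genes together.

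Short windows of promoter show the elements through which these genes are tied to one another. The RefSeq promoter table (GRCm38.p6, 250 bases before to 50 bases after each start) held 9 of the 10 genes, all but Per2. Capitals mark the motif found on either strand: the E-box CACGTG, the D-box TTATGTAA and the core of the ROR element TAGGTCA. The windows given are 250 bases 5′ to 3′ up to the start for Cry1 (chr10:85185055-85185304, minus strand), Per1 (chr11:69098699-69098948, plus strand) and Per3 (chr4:151044666-151044915, minus strand), and for Arntl only 30 bases around the motif in the first exon (chr7:113207529-113207558, plus strand).
Cry1: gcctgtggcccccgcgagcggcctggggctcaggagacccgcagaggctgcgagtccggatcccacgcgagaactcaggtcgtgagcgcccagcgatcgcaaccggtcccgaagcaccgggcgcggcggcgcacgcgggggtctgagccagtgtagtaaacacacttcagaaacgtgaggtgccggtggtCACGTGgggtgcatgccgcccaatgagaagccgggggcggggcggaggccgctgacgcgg
Per1: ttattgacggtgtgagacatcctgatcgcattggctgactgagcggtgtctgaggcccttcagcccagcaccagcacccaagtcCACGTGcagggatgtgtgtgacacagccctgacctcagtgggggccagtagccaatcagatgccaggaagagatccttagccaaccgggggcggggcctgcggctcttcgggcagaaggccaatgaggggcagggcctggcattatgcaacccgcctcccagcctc
Per3: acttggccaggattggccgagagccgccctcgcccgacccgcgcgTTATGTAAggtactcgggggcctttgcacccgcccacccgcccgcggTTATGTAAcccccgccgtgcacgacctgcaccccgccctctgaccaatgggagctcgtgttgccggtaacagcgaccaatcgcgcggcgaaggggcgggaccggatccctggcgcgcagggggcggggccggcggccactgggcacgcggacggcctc
Arntl: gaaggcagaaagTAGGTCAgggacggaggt
The E-box begins 60 bases before the start of Cry1 and 166 bases before the upstream start of Per1, and 7.15% of all 32851 promoter windows held one. Per3 held 2 D-boxes, 205 and 158 bases before its start, and 0.938% of all windows held at least 1. The ROR element core begins at base 31 of the downstream Arntl start, and 2.61% of all windows held it. These letters are a description of the sequence and the windows of Clock, Npas2, Nr1d1, Nr1d2 and Dbp held none of the 3 motifs.

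In GRCm39, the build of the deposited tables, Arntl (ENSMUSG00000055116) lies at chr7:112806152-112914735 and Dbp (ENSMUSG00000059824) at chr7:45354512-45359627. Npas2 (chr1:39232705-39402323), Per2 (chr1:91343700-91387069), Per3 (chr4:151081373-151129140), Clock (chr5:76342860-76452846), Cry1 (chr10:84967560-85021252), Per1 (chr11:68986035-69002300), Nr1d1 (chr11:98658752-98666188) and Nr1d2 (chr14:4230545-4266624) are spread over 6 further chromosomes.

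Libraries held between 16663513 and 65333832 reads. Il11 stood at or below 0.166 CPM (counts scaled to library size) in every control library, between 15.5 and 49.1 CPM in uninduced hearts and between 328 and 819 CPM in induced hearts. Cardiomyocyte markers were abundant in every library, with a summed level of 7 genes between 29409 and 60427 CPM, but their medians were lower after induction, at 57157 CPM in male controls and 45720, 43408 and 40711 CPM at 1, 3 and 6 weeks, and at 46197 CPM in female controls and 31866, 40835 and 33355 CPM. Summed endothelial markers (5 genes) went from a median of 897 CPM to between 604 and 703 CPM in males and from 837 CPM to between 527 and 586 CPM in females. Summed fibroblast markers (5 genes) lay between 561 and 871 CPM in control hearts and between 3894 and 9646 CPM in induced hearts, and summed macrophage markers (5 genes) between 63.2 and 143 CPM and between 210 and 386 CPM. Of 4 atrial markers Sln was near 0 or not listed in all groups, and Myl7 in all but uninduced, 1-week and 6-week females. The summed atrial list, which holds Nppa, a gene that ventricles also use under load, had a median of 35.4 CPM in male controls and 464 CPM in males at 1 week, and of 59.5 CPM in female controls and 239 CPM in females at 1 week, with 1546 CPM in 1 female heart at 6 weeks. The share of these other cells in the clock gene values was not tested. In bulk tissue, fewer cells of a type and less RNA per cell cannot be told apart.

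The clock genes differed far more between hearts of the same group than most genes did. Within groups, the SD of log2(CPM + 0.5) was 1.04 for Arntl, 1.08 for Per2, 0.86 for Per3, 1.02 for Dbp and 0.80 for Npas2 in males, beside a median of 0.23 over all 16931 genes tested. In females it was 1.11 for Arntl, 0.85 for Per2, 0.85 for Per3, 1.37 for Dbp and 0.81 for Npas2, beside a median of 0.21 over 16956 genes. Each of these values exceeded that of at least 99.2% of genes, and Dbp in females that of 99.96% of them. Nr1d1, Nr1d2, Per1 and Cry1 were less spread, with SDs between 0.33 and 0.49, and Clock, which oscillates weakly in most tissues, had an SD of 0.24 in males and 0.29 in females.

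Dbp, an output factor known for a wide daily swing, shows how far apart single hearts were. In male controls it stood at 38.4, 73.0 and 65.9 CPM, in uninduced males at 70.3, 83.6, 63.0 and 59.4 CPM, and in males at 1 week at 53.5, 82.5, 78.6 and 23.6 CPM. Male hearts at 3 weeks had 12.3, 55.2, 94.1 and 107 CPM of Dbp, and those at 6 weeks 14.96, 39.5 and 135 CPM. The 3-week and 6-week males thus reached both below and above all male controls, with up to 9.0-fold between their lowest and highest hearts against 1.90-fold in controls.

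Female hearts were split more sharply. Female controls had 103, 130, 19.2 and 34.3 CPM of Dbp, which puts replicates 1 and 2 far above replicates 3 and 4. Uninduced females had 64.0, 2.33, 38.8 and 35.8 CPM for replicates 1 to 4, so that 1 heart lay 27.4-fold below the highest. Females at 1 week were alike at 32.7, 36.0, 42.4 and 27.2 CPM, and so were females at 3 weeks at 91.2, 140, 113 and 104 CPM, all above every 1-week heart. At 6 weeks, females had 5.23, 11.8, 20.8 and 118 CPM, where replicate 4 was at the level of the 3-week hearts.

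Arntl, the activator, ran in the opposite direction in the same hearts. Male controls had 11.7, 4.999 and 6.95 CPM of Arntl, uninduced males 3.69, 2.67, 6.08 and 6.46 CPM, and males at 1 week 4.69, 3.46, 2.79 and 10.4 CPM. At 3 weeks male values were 16.7, 6.28, 1.05 and 2.13 CPM, and at 6 weeks 12.4, 6.64 and 1.54 CPM. The heart with the lowest Dbp in each of these male groups had the highest Arntl.

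In females, controls had 1.46, 1.21, 16.3 and 9.09 CPM of Arntl, and uninduced hearts 4.04, 29.1, 6.22 and 8.09 CPM. Females at 1 week had 6.72, 5.02, 4.68 and 8.67 CPM, those at 3 weeks 1.90, 0.608, 0.765 and 1.03 CPM, and those at 6 weeks 15.3, 14.2, 11.3 and 1.79 CPM. The female controls with high Dbp were the ones with low Arntl, and the uninduced heart with 2.33 CPM of Dbp had the highest Arntl of all 20 females.

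**Figure D1:**
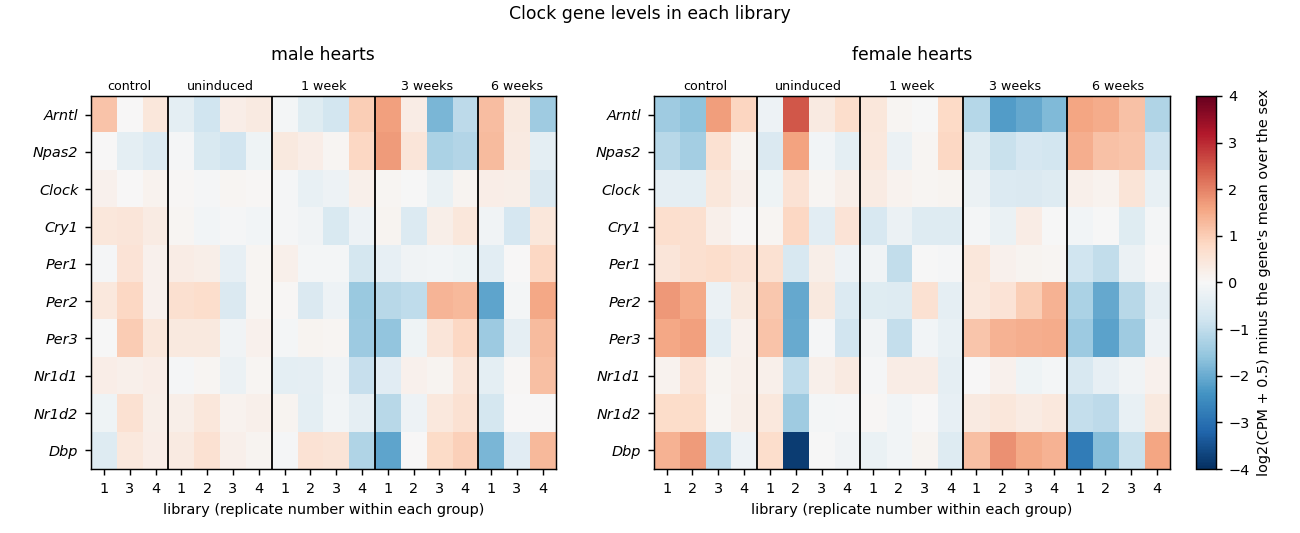
Level of each clock gene in each library as log2(CPM + 0.5) minus the mean of that gene over the libraries of the sex, by group and replicate number. Columns of 1 group differ: female control replicates 1 and 2 (Dbp 103 and 130 CPM) are red for Dbp and the Per genes and blue for Arntl, and replicates 3 and 4 (19.2 and 34.3 CPM) show less Dbp and more Arntl.

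**Figure D2:**
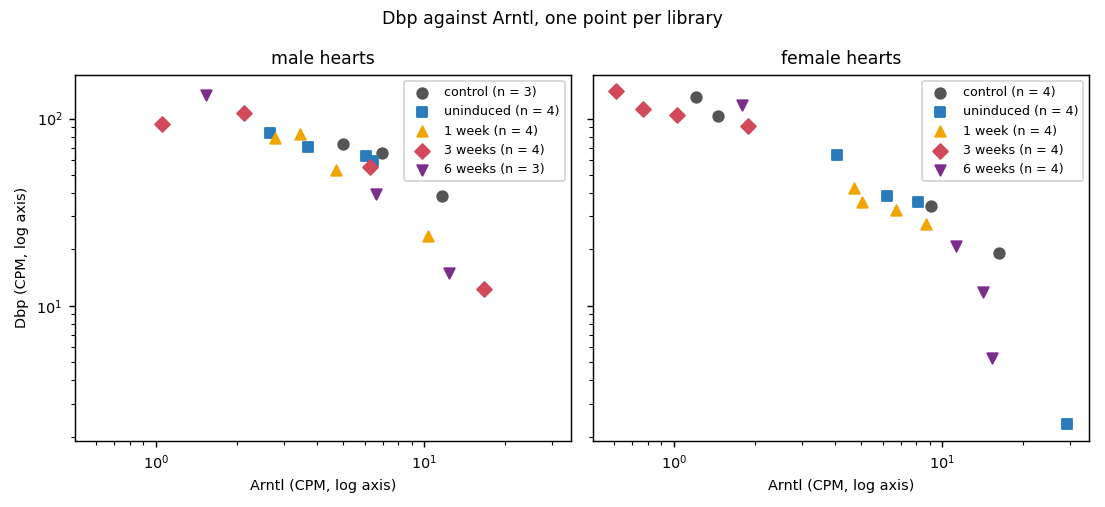
Dbp against Arntl in CPM, both on log axes, with 1 point per library and 1 colour per group. Points run from high Dbp and low Arntl to low Dbp and high Arntl in both sexes, and groups such as female control and male 3 weeks are spread along most of that line.

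The place of a heart between high Arntl and high Dbp was given by the log2 ratio of Dbp to Arntl, which does not give the hour. It ran from -0.42 to 6.05 in males and from -3.38 to 6.99 in females. Among male controls it was 1.68, 3.74 and 3.16, a narrower range than the -0.42, 3.04, 5.93 and 5.35 of males at 3 weeks and the 0.27, 2.49 and 6.05 of males at 6 weeks. Female controls had 5.72, 6.26, 0.23 and 1.86. All 4 females at 3 weeks lay between 5.26 and 6.99, beside the first 2 controls, and 3 of the 4 females at 6 weeks lay between -1.46 and 0.85, near and below the other 2 controls.

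To separate this heart-to-heart movement from the groups, each gene's deviation from its group mean was set against that of Arntl, with p-values from 100000 permutations within groups (two-sided) adjusted over the 9 relations of a sex. In 18 male hearts, Arntl was opposed to Dbp with r = -0.94 (permutation p = 3e-05, adjusted p = 0.00027) and Spearman rho = -0.94 (permutation p = 1e-05, adjusted p = 9e-05, the smallest p that these permutations can give). It was also opposed to Per3 (r = -0.93, rho = -0.94), Per2 (r = -0.89, rho = -0.88), Nr1d2 (r = -0.82, rho = -0.81), Nr1d1 (r = -0.78, rho = -0.63) and Per1 (r = -0.71, rho = -0.72). Npas2, the partner that can stand in for CLOCK, moved with Arntl (r = 0.89, rho = 0.86), and so did Clock itself (r = 0.73, rho = 0.69). These 8 relations had adjusted permutation p between 0.00027 and 0.00592 for r and between 9e-05 and 0.0317 for rho. Cry1 did not pass, at r = -0.37 (permutation p = 0.354, adjusted p = 0.354) and rho = -0.40 (permutation p = 0.215, adjusted p = 0.215).

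In 20 female hearts the same comparison gave r = -0.92 for Dbp (permutation p = 1e-05, the smallest possible, adjusted p = 9e-05) and rho = -0.96 (permutation p = 1e-05, adjusted p = 9e-05). Npas2 (r = 0.96, rho = 0.95) and Clock (r = 0.92, rho = 0.89) moved with Arntl, and Per3 (r = -0.88, rho = -0.83), Nr1d2 (r = -0.85, rho = -0.86), Per2 (r = -0.83, rho = -0.81) and Nr1d1 (r = -0.68, rho = -0.66) moved against it. Adjusted permutation p of these 7 relations lay between 9e-05 and 0.00282 for r and between 9e-05 and 0.00732 for rho. Per1 (r = -0.40, permutation p = 0.109, adjusted p = 0.122, and rho = -0.32, permutation p = 0.218, adjusted p = 0.245) and Cry1 (r = -0.05, permutation p = 0.873, adjusted p = 0.873, and rho = -0.11, permutation p = 0.697, adjusted p = 0.697) did not pass.

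The relations did not rest on the most distant hearts. Without the 2 male libraries farthest from the median of Arntl (3 weeks, replicates 1 and 3) r was -0.96 for Dbp, -0.96 for Per3, -0.84 for Per1 and 0.81 for Npas2. Without the 2 farthest female libraries (6 weeks replicate 4 and control replicate 3) r was -0.88 for Dbp, 0.93 for Npas2, 0.85 for Clock and -0.83 for Per3. The 8 male and 7 female relations again had adjusted permutation p under 0.05, the highest being 0.0294 in males (Nr1d2) and 0.0255 in females (Nr1d1). A single axis, the first principal component of the 10 genes' deviations, held 87.0% of their within-group variance in each sex. The deviations were not scaled, so widely spread genes such as Dbp and Arntl weigh most in that share. Cry1 in both sexes and Per1 in females had no relation to Arntl that passed.

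**Figure D3:**
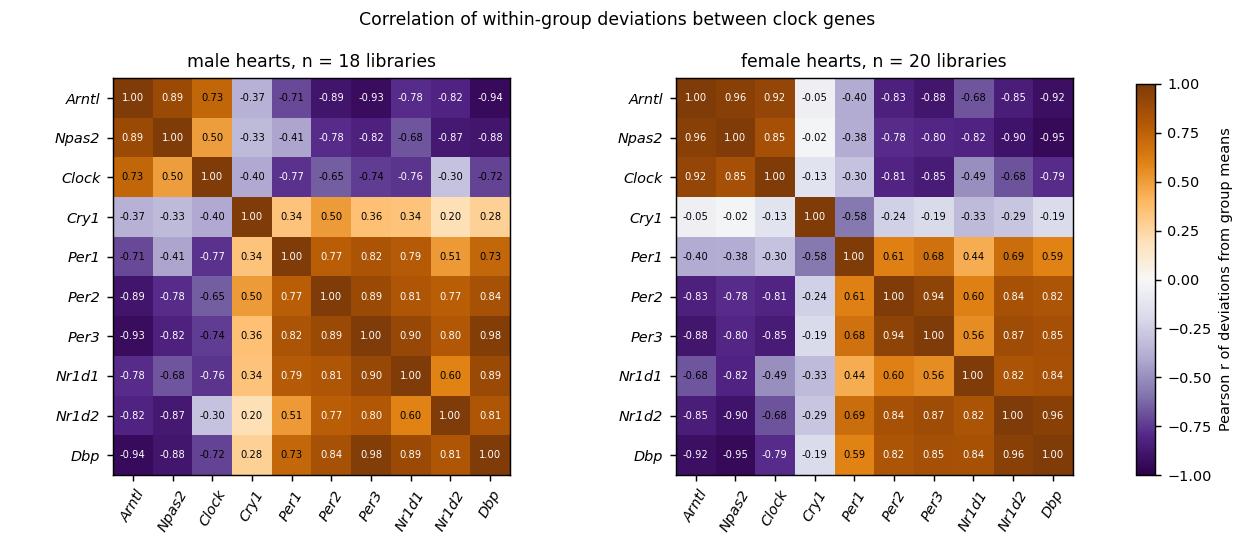
Pearson r between the deviations of each pair of clock genes from their group means on the log2(CPM + 0.5) scale, over 18 male and 20 female libraries. Arntl, Npas2 and Clock form one block and the Per genes, Nr1d1, Nr1d2 and Dbp the opposite one, with r = -0.94 (male) and -0.92 (female) between Arntl and Dbp, while r for Cry1 lies between -0.40 and 0.50 in males and between -0.58 and -0.02 in females.

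Other genes and members of the 10 were ranked by how closely they moved with Arntl or Dbp within groups, so a high r follows from the choice. Among 16626 genes tested in both sexes and ranked by the smaller of the 2 within-group r, those most like Arntl were Spon2 (r = 0.90 in males and 0.91 in females), Npas2 (0.89 and 0.96), Adam19 (0.90 and 0.87), Trp53i11 (0.83 and 0.83) and Tmem171 (0.90 and 0.82). Spon2 encodes a secreted matrix protein and Adam19 a membrane metalloprotease. Those most like Dbp were Tef (0.94 and 0.96), which codes for a D-box factor of the same family as DBP, Tcap (0.88 and 0.90), a sarcomere protein gene, Per3 (0.98 and 0.85), Cry2 (0.93 and 0.84) and Nr1d1 (0.89 and 0.84). These values describe 18 male and 20 female libraries that also share depth and tissue makeup.

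Differences between the groups were tested with limma on all genes, adjusted by the Benjamini-Hochberg method, and a gene was called at an adjusted p under 0.05. In a limma F test over the 5 groups of males 0 of the 10 clock genes were called, against 30.9% of all genes, and 0 by edgeR on the recovered reads. At an unadjusted p under 0.05 there were 0 clock genes, beside 7245 of all 16931 genes. In females 6 of 10 were called, against 35.5% of all genes, namely Arntl, Clock, Per1, Per2, Per3 and Cry1. The groups accounted for between 5.59% (Dbp) and 37.6% (Cry1) of each clock gene's variance in males, beside a median of 43.1% over all genes. In females they accounted for between 19.4% (Nr1d1) and 61.7% (Per3), beside a median of 40.9%.

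Against control, Cry1 was the only clock gene called in the males, where it was lower, and it was called only at 1 week. The fall at 1 week was seen in the females as well. Cry1, a transcriptional repressor of the pair that ARNTL forms, stood at 7.98, 8.14 and 7.34 CPM in male controls and at 5.56, 5.07, 3.56 and 4.91 CPM at 1 week, with no overlap. The share of all genes without overlap was not counted in this or other comparisons, so overlap only describes the printed values. The log2 fold change of Cry1 at 1 week was -0.67 ± 0.23 (SE), with limma adjusted p = 0.0304, and 1 of 10 clock genes was called against 33.5% of all genes. Male Cry1 at 3 weeks (-0.35 ± 0.23, limma adjusted p = 0.314) and 6 weeks (-0.54 ± 0.25, limma adjusted p = 0.116) was not called, in comparisons where 0 of 10 clock genes and 21.3% and 27.1% of all genes were called. At an unadjusted p under 0.05 that was 0 clock genes at 3 weeks and Cry1 alone at 6 weeks, beside 5515 and 6527 of all 16931 genes. By edgeR or DESeq2 0 clock genes were called at either time. The call at 1 week was lost when any 1 of the 3 male controls or 1-week replicate 3 was left out (limma adjusted p between 0.055 and 0.0941). Uninduced males, at 6.09, 5.19, 5.45 and 5.22 CPM of Cry1, also lay below every male control (-0.48 ± 0.23, limma adjusted p = 0.48), and 1-week hearts differed from them by -0.20 ± 0.21 (limma adjusted p = 0.574). The 1-week hearts also carried more fibroblast markers, from 5945 to 8275 CPM, than controls.

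Nr1d1, a repressor of Arntl, had no overlap at 1 week either, with 97.5, 93.3 and 97.0 CPM in male controls and 62.0, 63.1, 74.0 and 42.9 CPM at 1 week, but was not called (log2 fold change -0.69 ± 0.27, limma adjusted p = 0.0561). Per2 (-1.03 ± 0.68) and Npas2 (0.69 ± 0.51) did not overlap at 1 week either and were not called, with the spread shared over all 5 groups. How many of all genes lacked overlap at 1 week was not counted. With just these 2 groups in the fit the SE was 0.30 for Per2 and 0.21 for Npas2, and both were called (limma adjusted p = 0.0215 and 0.0267). Nr1d1 was called in that fit too (SE 0.16, limma adjusted p = 0.00682). It was also called by DESeq2 (adjusted p = 0.0356) and with median-of-ratios scaling (limma adjusted p = 0.0465), but not by edgeR. Per3 differed by -0.81 ± 0.54 and overlapped. Across the 3 times in order, Arntl in males differed from control by -0.61 ± 0.66, -0.76 ± 0.66 and -0.47 ± 0.70, and Dbp by -0.09 ± 0.64, -0.15 ± 0.64 and -0.39 ± 0.69.

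In females, Cry1 and Per1 fell at 1 week and 5 clock genes fell at 6 weeks. Cry1 had 9.60, 9.48, 6.80 and 5.99 CPM in controls and 3.56, 4.84, 3.93 and 3.95 CPM at 1 week (log2 fold change -0.87 ± 0.21, limma adjusted p = 0.00393). Per1, a repressor that also responds to hormonal signals, had 105, 116, 122 and 112 CPM in controls and 68.4, 38.1, 73.9 and 72.0 CPM at 1 week (-0.89 ± 0.24, limma adjusted p = 0.00839). Neither gene overlapped between the groups, but the share of all genes without overlap was not counted. Per1, unlike Dbp, was level over the 4 controls, between 105 and 122 CPM. Cry1 and Per1 were 2 of 10 clock genes, against 28.4% of all genes.

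At 6 weeks in females Per2, a core repressor, had 5.31, 2.84, 5.90 and 10.2 CPM beside 45.5, 39.2, 11.4 and 17.5 CPM in controls (log2 fold change -2.05 ± 0.52, limma adjusted p = 0.00387). Per3 had 4.99, 2.92, 5.09 and 12.6 CPM beside 43.6, 46.6, 10.7 and 16.4 CPM (-2.04 ± 0.52, limma adjusted p = 0.00405). Of the 2, Per2 did not overlap and Per3 did, through control replicate 3 and 6-week replicate 4. Per1 had 42.7, 37.8, 64.2 and 75.5 CPM (-1.10 ± 0.24, limma adjusted p = 0.00116), Cry1 5.35, 5.80, 4.04 and 5.55 CPM (-0.56 ± 0.21, limma adjusted p = 0.0395) and Nr1d2 36.7, 34.6, 58.1 and 94.0 CPM beside 121, 119, 75.6 and 85.2 CPM in controls (-0.93 ± 0.31, limma adjusted p = 0.0194). These were 5 of 10, against 42.7% of all genes, and without any 1 of control replicate 1, control replicate 2 and 6-week replicate 1 the count was 3, with Per1, Per2 and Per3 called. Cry1 was also lost without 6-week replicate 3 or 4 (limma adjusted p = 0.118 and 0.0528), and Nr1d2 without 6-week replicate 2 (limma adjusted p = 0.0784). Fibroblast markers stood between 5621 and 9646 CPM in these 6-week hearts.

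The 2 female controls with a high ratio of Dbp to Arntl supplied the high Per2 and Per3 values, at 45.5 and 39.2 CPM of Per2 against 11.4 and 17.5 CPM in the others. The activators moved the other way without passing, Npas2 by 1.17 ± 0.50 (limma adjusted p = 0.064) and Arntl by 0.88 ± 0.68 (limma adjusted p = 0.31), and Dbp by -1.42 ± 0.84 (limma adjusted p = 0.176). At 3 weeks 0 of 10 clock genes were called by limma in females against 31.3% of all genes, while edgeR called Arntl and DESeq2 called Arntl and Clock. There Arntl stood between 0.608 and 1.90 CPM, near the 0.5 added before the log, which makes its fold change smaller. It differed by -1.68 ± 0.68 (limma adjusted p = 0.0673), beside -2.68 by edgeR (adjusted p = 0.0161) and -2.69 ± 0.79 by DESeq2 (adjusted p = 0.00368). Clock differed by -0.45 ± 0.18 (limma adjusted p = 0.0713). Arntl and Clock were the clock genes at an unadjusted p under 0.05, beside 6972 of all 16956 genes. Both were called when either control replicate 1 or control replicate 2, the hearts with little Arntl, was left out.

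**Figure D4:**
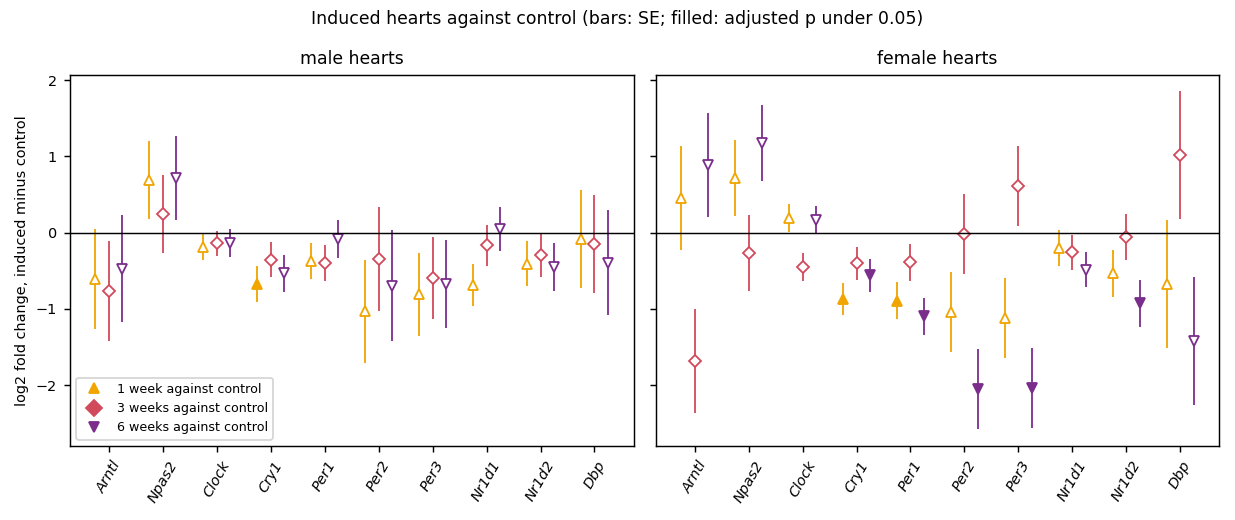
log2 fold change (points) and SE (bars) of each clock gene 1, 3 and 6 weeks after tamoxifen against control, by sex, with filled points at an adjusted p under 0.05. Filled points are Cry1 at 1 week in males (-0.67) and, in females, Cry1 and Per1 at 1 week and Per1, Per2, Per3, Cry1 and Nr1d2 at 6 weeks, all below 0.

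Between uninduced and control hearts limma called 0 of 10 clock genes in each sex, beside 0.597% of all genes in males and 2.87% in females, and edgeR and DESeq2 also called 0. At an unadjusted p under 0.05 Per1, Per2, Per3 and Nr1d2 were lower in uninduced females, by -0.60, -1.14, -1.17 and -0.72 on the log2 scale, and 0 clock genes passed in males. Of all genes, 2605 of 16956 passed that threshold in females and 1789 of 16931 in males. Against uninduced hearts, 0 of 10 clock genes were called in males at 1, 3 and 6 weeks (18.8%, 16.1% and 20.4% of all genes), and 0 by edgeR or DESeq2. At an unadjusted p under 0.05 there were 0 clock genes, beside 5411, 4756 and 5675 of all 16931 genes. In females Cry1 fell at 1 week (-0.75 ± 0.21, limma adjusted p = 0.0236), 1 of 10 against 12.6% of all genes, although the groups overlapped. That call was lost without any 1 of uninduced replicates 2 and 4 and 1-week replicates 1, 3 and 4 (limma adjusted p between 0.0528 and 0.101) and with just these 2 groups in the fit (limma adjusted p = 0.0979).

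Activators were called in 1 comparison of the groups alone, females at 3 weeks against uninduced females. Arntl fell against uninduced hearts by -2.64 ± 0.68 (limma adjusted p = 0.0103) and Clock by -0.65 ± 0.18 (limma adjusted p = 0.0183), while Per3 rose by 1.78 ± 0.52 (limma adjusted p = 0.0227), which makes 3 of 10 against 16.7% of all genes. Without uninduced replicate 2, the heart with 29.1 CPM of Arntl, only Arntl was called, and the same was true without 3-week replicate 3. Per3 was also lost without uninduced replicate 4 or 3-week replicate 4, and by edgeR (1.39, adjusted p = 0.0736) and DESeq2 (1.39 ± 0.59, adjusted p = 0.0832), which each called 2 genes. At 6 weeks 0 of 10 were called against 22.8% of all genes, and 0 by edgeR or DESeq2. At an unadjusted p under 0.05 there were 0 clock genes, beside 6066 of all 16956 genes.

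Between the weeks after tamoxifen limma called 0 of 10 clock genes in any of the 3 comparisons of each sex. Of all genes, 0.0177% (3 weeks against 1 week), 0.165% (6 weeks against 1 week) and 0% (6 weeks against 3 weeks) were called in males, and 0.218%, 1.03% and 0% in females. At an unadjusted p under 0.05 there were 0, 1 and 0 clock genes in males and 4, 0 and 8 in females. Of all genes, 2710, 2615 and 1072 of 16931 passed that threshold in males and 1699, 2137 and 2572 of 16956 in females. Both edgeR and DESeq2 called 0 clock genes throughout but for 2 by DESeq2 in females at 6 against 3 weeks, Arntl and Per3.

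Those 8 genes did not pass in limma after adjustment over all genes, and female 6-week replicate 4 had a log2 ratio of Dbp to Arntl, 5.70, inside the range of the 3-week hearts. Per1, Per2 and Per3 did not overlap between the 2 times, and Arntl, Clock, Npas2, Nr1d2 and Dbp did. How many of all genes lacked overlap here was not counted. All 4 hearts at 3 weeks had between 31.8 and 41.0 CPM of Per3 and all 4 at 6 weeks between 2.92 and 12.6 CPM, a log2 difference of -2.65 ± 0.52 (limma adjusted p = 0.0884). Per2 (-2.03 ± 0.52), Per1 (-0.71 ± 0.24), Nr1d2 (-0.87 ± 0.31) and Dbp (-2.44 ± 0.84) were lower at 6 weeks and Arntl (2.56 ± 0.68), Npas2 (1.43 ± 0.50) and Clock (0.61 ± 0.18) higher, with limma adjusted p between 0.156 and 0.216. Cry1 (-0.16 ± 0.21) and Nr1d1 (-0.23 ± 0.23) made up the rest.

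Since 1 axis held most of the within-group variance, the groups were also compared with an index of each heart's place as a covariate. The index was made from the other clock genes with the tested gene left out, and Cry1 entered it for no gene. It was the mean of their scaled log2 levels, with Arntl, Clock and Npas2 counted against the rest, and not the principal component itself. Under this index Cry1 was lower at 1 week in males (-0.60 ± 0.23, limma adjusted p = 0.0497) and in females (-0.94 ± 0.23, limma adjusted p = 0.00493), and at 6 weeks in females (-0.68 ± 0.26, limma adjusted p = 0.0456). Cry1 had little relation to Arntl within groups (r = -0.37 in males and -0.05 in females), so this index could change its values little. Whether Cry1 moved with the hour of sampling was not tested. Per1 was lower in females at 1 week (-0.70 ± 0.22, limma adjusted p = 0.0222) and 6 weeks (-0.75 ± 0.24, limma adjusted p = 0.019). The falls of Per2 and Nr1d2 at 6 weeks were no longer called (-0.78 ± 0.31, limma adjusted p = 0.0558, and -0.09 ± 0.13, limma adjusted p = 0.6), and that of Per3 shrank to -0.71 ± 0.28 (limma adjusted p = 0.0496).

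These calls depended on which index was used. With a reference index of 5 genes that peak near Dbp and are not among the 10 (Ciart, Tef, Hlf, Usp2 and Bhlhe41), Cry1 was not called at 1 week in males (-0.48 ± 0.25, limma adjusted p = 0.176) or females (-0.76 ± 0.27, limma adjusted p = 0.0605), nor Per1 at 1 week in females (-0.54 ± 0.28, limma adjusted p = 0.209). All 5 calls in females at 6 weeks were lost as well, with limma adjusted p of 0.135 for Per1, 0.604 for Per2, 0.778 for Per3, 0.312 for Cry1 and 0.511 for Nr1d2. Other clock genes were called in these female fits instead. At 6 weeks they were Arntl (-1.89 ± 0.38), Clock (-0.46 ± 0.17), Npas2 (-0.88 ± 0.26) and Dbp (1.87 ± 0.54), with limma adjusted p between 0.00135 and 0.0495. At 1 week they were Arntl (-1.72 ± 0.35), Npas2 (-0.89 ± 0.23) and Dbp (1.91 ± 0.49), with limma adjusted p between 0.0016 and 0.0126.

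With the index of the other clock genes, Arntl and Dbp differed from control where they had not without it. At a given position among the other clock genes, Arntl was lower than control in males at 1, 3 and 6 weeks by -1.37 ± 0.24, -1.17 ± 0.23 and -0.93 ± 0.25 (limma adjusted p = 0.000286, 0.00108 and 0.00879). In females the values were -0.74 ± 0.31, -1.48 ± 0.28 and -1.08 ± 0.35 (limma adjusted p = 0.0888, 0.000521 and 0.0217). Dbp was higher in females at all 3 times, by 0.88 ± 0.23, 0.62 ± 0.21 and 1.12 ± 0.26 (limma adjusted p = 0.00798, 0.0321 and 0.00263), and in males at 1 week by 0.57 ± 0.19 (limma adjusted p = 0.0293). Per3, which had r = 0.98 with Dbp in males, was lower in males at all 3 times instead, by -0.35 ± 0.13, -0.42 ± 0.13 and -0.44 ± 0.14 (limma adjusted p = 0.0492, 0.0247 and 0.0247), and so was male Nr1d1 at 1 week (-0.52 ± 0.15, limma adjusted p = 0.0122). With the reference index the male Per3 differences had the other sign and were not called (0.43, 0.34 and 0.45, limma adjusted p = 0.0578, 0.13 and 0.0507), and Nr1d1 at 1 week was not called (-0.14 ± 0.16, limma adjusted p = 0.561). Without the index, Dbp differed from control by -0.67 ± 0.84, 1.01 ± 0.84 and -1.42 ± 0.84 in females, so its sign at 1 and 6 weeks turned with the index. Because the index is made of clock genes, a change of those genes by group enters it too.

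Among 15 further clock genes, all tested in both sexes, more were called in females than in males. In males 0 rose and 3 fell at 1 week, 1 rose and 0 fell at 3 weeks, and 1 rose and 2 fell at 6 weeks, with median log2 fold changes of -0.27, -0.27 and -0.32 beside medians of all genes between -0.01 and 0.02. Of all genes 33.5%, 21.3% and 27.1% were called in these male comparisons, so that the 3, 1 and 3 of 15 lay below the share of all genes. In females 1 rose and 7 fell at 1 week, 2 rose and 2 fell at 3 weeks, and 1 rose and 7 fell at 6 weeks, with medians of -0.35, -0.13 and -0.30, where 28.4%, 31.3% and 42.7% of all genes were called. Hlf, a D-box factor related to DBP, fell by -1.73 ± 0.48 at 1 week and -1.64 ± 0.51 at 6 weeks in males and by -1.45 ± 0.43 and -2.18 ± 0.43 in females (limma adjusted p = 0.00865, 0.0219, 0.015 and 0.000428).

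Ciart, a repressor that follows Dbp in time, had the largest changes of the list in females, -2.10 ± 0.57 at 1 week and -2.67 ± 0.57 at 6 weeks (limma adjusted p = 0.00878 and 0.000921). Tef fell in females by -1.02 and -1.53 at the same times, Cry2, a repressor like Cry1, by -0.75 and -0.91, and in males at 1 week by -0.69. Usp2, a deubiquitinase under clock control, fell in males at 1 week by -0.89 and in females at 1 and 6 weeks by -1.04 and -1.38, and was also lower in uninduced females by -0.89 (limma adjusted p = 0.0363). Ciart, Hlf, Tef and Usp2 belong to the reference index, and Tef and Cry2 were among the genes most like Dbp within groups. Female controls were split on that index, at 1.41 and 1.73 for replicates 1 and 2 and at 0.15 and 0.36 for replicates 3 and 4. Whether the falls of these genes go with the place of the hearts on that axis was not tested. Csnk1e, a kinase that marks PER proteins for turnover, fell in females at every week by -0.48, -0.32 and -0.31, and Rora, which activates Arntl through the ROR element, by -0.35, -0.40 and -0.33.

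Of this list Timeless and Bhlhe40 (DEC1), a repressor that many stimuli induce, were the genes called higher against control. Bhlhe40 rose in females at 1, 3 and 6 weeks by 0.60 ± 0.18, 0.89 ± 0.18 and 0.78 ± 0.18 (limma adjusted p = 0.0158, 0.000669 and 0.00169). In males it rose at 3 and 6 weeks by 0.70 ± 0.20 and 0.65 ± 0.21 (limma adjusted p = 0.0156 and 0.0297). Timeless rose in females at 3 weeks by 0.52 ± 0.16 (limma adjusted p = 0.0191), and Btrc, an F-box protein gene that acts on PER turnover, fell in males at 6 weeks by -0.42 ± 0.12 (limma adjusted p = 0.0173).

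Of 10 genes known as clock outputs in the heart, Kcnip2, which codes for a potassium channel subunit, fell at every week in both sexes, by -1.29, -1.61 and -1.82 in males and by -1.44, -1.65 and -2.07 in females. In males 4, 1 and 2 of the list fell and 0, 1 and 0 rose at 1, 3 and 6 weeks, and in females 6 fell at each week and 0 rose, beside 33.5%, 21.3% and 27.1% of all genes called in males and 28.4%, 31.3% and 42.7% in females. Of 6 genes induced by glucocorticoids, hormones that also set clock time, 0, 1 and 1 fell in males and 2, 6 and 3 in females, with 0 risen, which at 1 and 6 weeks is near the same shares of all genes in females. Pdk4 is in both lists.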

How the data were processed

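PolyA RNA from 40 mouse hearts was sequenced, and per the labels and the study's methods reads were aligned to GRCm39 with STAR and counted per gene with featureCounts. Each sex has 1 table of deposited signal values, CPM that the authors scaled by library factors. Divided by the smallest step of their library, 100% of the values came within 0.001 of whole reads, and the counts were recovered that way. The tables were scaled separately, so no test was made between the sexes. Labels number separate replicates without saying more about litters or batches.

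limma 3.58.1 in R 4.3.3 was run on log2(CPM + 0.5) with its trended prior, all groups of a sex in 1 fit, for genes at 0.5 or more in at least 3 libraries, which left 16931 genes in males and 16956 in females. Adjustment over all of them followed Benjamini and Hochberg, with no minimum fold change. Fold changes on this scale understate changes of low genes. Alternatives used other pseudocounts, filters and scalings, edgeR 4.0.16 and DESeq2 1.42.0 on the recovered reads, blocks, covariates and fewer libraries. The members and lists were chosen with earlier results of these data known, and the index of the other clock genes after the data were seen. Named are the 10 members, further clock genes called against control or with the 3 largest changes, and the 5 genes most like Arntl and Dbp. No 2 libraries of a group agreed within counting noise. Depth was 16663513 to 65333832 reads per library, so counting error was small beside the spread between hearts. The check on simulated data recovered most of the planted differences. Its spread between libraries was smaller than that of the most variable clock genes, so it does not show recovery for genes that variable. Gene positions are from GENCODE and promoters from RefSeq.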

Additional observations from a re-analysis of the deposited data

Results flagged for a closer look

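In 80 sets of 4 hearts (10 clock genes in 8 groups) a single heart stood apart from the other 3 by Dixon's criterion in 6. In independent sets chance alone gives about 1 in 20. The 80 sets are not independent, since the 10 genes share the same hearts and most move together, so 6 shows no excess over chance. Female 6-week replicate 4 was one for both Arntl (1.79 CPM beside 15.3, 14.2 and 11.3 CPM) and Npas2 (2.00 CPM beside 11.5, 9.49 and 8.96 CPM). Females at 1 week gave replicate 2 for Per1 (38.1 CPM beside 68.4, 73.9 and 72.0 CPM) and replicate 3 for Per2 (20.5 CPM beside 9.35, 9.15 and 10.2 CPM). In uninduced females replicate 2 had 36.9 CPM of Nr1d1 beside 85.7, 85.998 and 95.9 CPM, and in males at 1 week replicate 4 had 7.75 CPM of Per3 beside 20.9, 23.9 and 23.4 CPM.

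The 2 male libraries that entered no comparison were above the highest male control in 3 values. The library with a control title and a 6-week description had 32.7 CPM of Clock and 5.62 CPM of Npas2, where the highest control had 29.1 and 3.34 CPM. The library with a 6-week title and a control description had 119 CPM of Nr1d1, where the highest control had 97.5 CPM.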

How the results depend on the processing

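Other pseudocounts, no filter and a stricter filter moved no count of called clock genes past 1.5 times. In males at 1 week against control, 1 gene was called in the analysis reported, 2 with median-of-ratios scaling, 2 by DESeq2, 4 when the fit held just these 2 groups, 0 with a log2 fold change of at least 1, 0 with a replicate block, 0 with the 2 conflicting libraries placed by titles and 2 with them placed by descriptions. The replicate numbers do not pair the hearts (mean correlation of deviations 0.013 over 33 male and 0.025 over 40 female pairs with 1 number), and the block changed no other call. With 2 groups in the fit, counts became 1 (males, 3 weeks against control), 2 (males, 1 week against uninduced), 2 (females, 3 weeks against control), 0 (females, 1 week against uninduced), 5 (females, 3 weeks against 1 week) and 1 (females, 6 weeks against 3 weeks). With a log2 fold change of at least 1, females had 0 at 1 week and 3 at 6 weeks against control and 0 at 1 week against uninduced. In females at 3 weeks against control edgeR called 1 and DESeq2 2, and at 6 against 3 weeks DESeq2 called 2.

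With the reference index of 5 genes as covariate, males had 3, 2 and 3 genes called at 1, 3 and 6 weeks against control, 2, 1 and 1 against uninduced, 1 at 6 weeks against 1 week and 3 in the F test, and females 3 (3 weeks against control), 0 (3 weeks against uninduced) and 1 (6 weeks against uninduced). In females at 1 and 6 weeks against control the genes called under it were other ones than without it, as given above. Of the 5 genes of this index Hlf and Usp2 fell at 1 week and Hlf at 6 weeks in males. In females 4 fell at 1 and 6 weeks, so the index moves with the groups. With the index of the other clock genes, males had 5, 2 and 2 against control, 1 at 6 weeks against uninduced, 1 at 6 weeks against 1 week and 2 in the F test, and females 3 (3 weeks against control), 1 and 1 (3 and 6 weeks against uninduced) and 3 in the F test.

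Signs turned under these 2 indices and no other setting for called values. With the reference index Dbp against control was 1.37, 0.96 and 0.93 in males (1, 3 and 6 weeks in turn), 1.91 and 1.87 in females (1 and 6 weeks), and 0.71 in males at 1 week against uninduced, where Arntl was -0.98. Female Arntl was -1.72 and -1.89 and Npas2 -0.89 and -0.88 at 1 and 6 weeks, and Clock -0.46 and Nr1d2 0.22 at 6 weeks. With the index of the other clock genes Dbp was 0.57 (males, 1 week), 0.88 and 1.12 (females, 1 and 6 weeks) and 0.75 (females, 6 weeks against uninduced), and female Arntl was -1.08 at 6 weeks. The cause was not tested. Of 6472 single values, 6327 kept their side of the threshold and 322 that were never called changed sign.

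Leaving out 1 heart at a time gave, against control, 0 to 2 genes in males at 1 week, 0 to 1 in males at 6 weeks, 0 to 2 in females at 3 weeks, 2 to 3 in females at 1 week and 3 to 7 in females at 6 weeks. Against uninduced females it gave 0 to 1 at 1 week, 1 to 5 at 3 weeks and 0 to 2 at 6 weeks, and for 6 against 3 weeks 0 to 2. In the F test it gave 0 to 2 in males and 4 to 9 in females. With 3 or 4 hearts a group, the spread between hearts, not depth, limits the comparisons.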

Other observations

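In the library with a control title and a 6-week description Il11 stood at 511 CPM, and in the library with a 6-week title and a control description at 0.597 CPM. Their clock genes lay within the spread of the labelled males for Dbp (28.2 and 67.8 CPM), Arntl (8.66 and 6.77 CPM), Per2 (21.8 and 26.1 CPM) and Per3 (14.8 and 24.6 CPM). Cry1 was at 5.91 and 6.93 CPM, below the 7.34 CPM of the lowest of the 3 male controls used, in both.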
